A study of Mus musculus with 2 samples.

Results

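Most of the 10 immediate early response genes described here have transcripts known to appear within minutes of a stimulus, without new protein synthesis. All 10 were taken by gene symbol from a table of 23234 genes and found there: Fos, Fosb, Jun, Junb, Jund, Egr1, Ier2, Atf3, Dusp1 and Zfp36. The table came from RNA-seq of round spermatids of C57BL/6 mice, which are the haploid cells formed by meiosis before the sperm head elongates. One group was wild type, with 1 library, and the other, also with 1 library, is labelled Epc-dKO, for mice given as deficient for Epc1 as well as Epc2, subunit genes of the NuA4/TIP60 histone acetyltransferase complex. The transcripts of this gene pair had no lower level in it. The promoter or cell type that drove the deletion, the age of the mice and any pooling of animals were not given in the sources used here. With 1 library per genotype there is no replicate error and no test between genotypes, and each difference below is one between 2 libraries.

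Immediate early genes are switched on by signals that reach serum response factor and its TCF partners through MAP kinases, or CREB-type factors through cAMP and calcium. Their products include the Fos and Jun proteins, which pair to form the AP-1 transcription factor, and proteins that end the response, such as the phosphatase encoded by Dusp1 and the mRNA-destroying protein encoded by Zfp36. The transcripts are short-lived, and they are also known to be induced by enzymatic and mechanical handling when tissues are dissociated.

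The upstream sequences below are shown because 5 of the 8 members with an entry in RefSeq (GRCm38.p6) held the core of the cAMP response element (CRE), TGACG on either strand, between 250 bases before and 50 bases after the annotated start. Of all 32851 such windows 20.8% held it. The full palindrome TGACGTCA, which contains that core on both strands, was found in 1.79% of all windows and among these genes only in Dusp1. A serum response element stood in the Zfp36 window alone of the 8, against 1.63% of all windows, and an EGR site, GCGNGGGCG on either strand, in those of Fosb and Zfp36, against 5.55%. No window of the 8 held the AP-1 site TGANTCA, which 7.81% of all windows held. Egr1 and Ier2 had no entry that was used, and sequence more than 250 bases before the start was not searched. Capitals mark the CRE core in the first 5 sequences (the palindrome included for Dusp1), and the EGR site followed by the serum response element in Zfp36. A match of letters is a description and not a measured binding site.
Fos, chr12:85473820-85473889, + strand: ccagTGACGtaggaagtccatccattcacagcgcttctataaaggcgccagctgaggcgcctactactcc
Fosb, chr7:19310046-19310115, - strand: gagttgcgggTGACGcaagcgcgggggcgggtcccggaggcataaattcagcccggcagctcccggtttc
Junb, chr8:84978799-84978868, - strand: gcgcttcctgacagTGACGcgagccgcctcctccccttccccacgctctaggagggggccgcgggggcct
Atf3, chr1:191183334-191183403, - strand: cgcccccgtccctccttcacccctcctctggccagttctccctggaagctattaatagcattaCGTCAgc
Dusp1, chr17:26508603-26508672, - strand: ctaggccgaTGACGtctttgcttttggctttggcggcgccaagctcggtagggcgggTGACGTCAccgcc
Zfp36, chr7:28379269-28379338, - strand: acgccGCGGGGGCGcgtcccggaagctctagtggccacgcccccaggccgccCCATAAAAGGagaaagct
The sequences of Fos, Fosb and Atf3 end at the base before the annotated start, and those of Junb, Dusp1 and Zfp36 lie further upstream.

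Every one of the 10 genes had a lower FPKM in the library labelled Epc-dKO than in the wild-type library. FPKM divides a gene's fragments by the length of its transcript and by the library's mapped total, so levels can be set side by side between genes. Summed over the 10 genes it was 38.6 in wild type against 17.4 in the library labelled Epc-dKO, a ratio of 0.450. The ratios of single genes ran from 0.209 to 0.930 and had a median of 0.404. Genes whose FPKM averaged at least 1 across the libraries, called expressed here, numbered 10438, and 8 of the 10 genes were among them, while Ier2 and Atf3 had lower means. In the library labelled Epc-dKO 54.4% of all expressed genes were lower by any amount, and 59.8% of those no more abundant than Egr1, the highest of the 10.

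**Figure D1:**
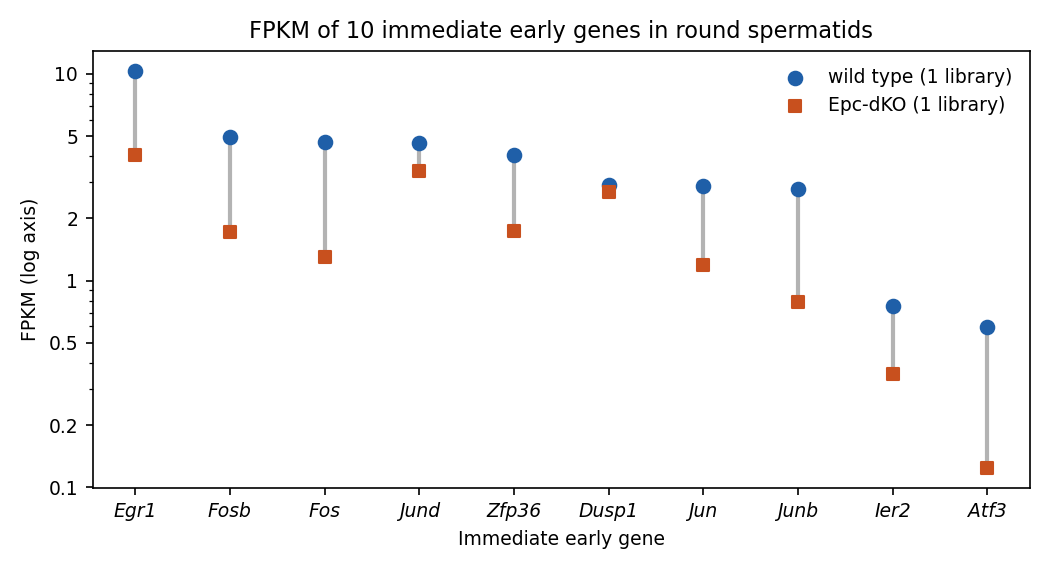
FPKM on a log axis of the 10 immediate early genes, ordered by the wild-type value, with a circle for the wild-type library, a square for the library labelled Epc-dKO and a grey line joining them. The square lies below the circle for each gene, by the widest distance for Atf3 (0.594 and 0.124) and the narrowest for Dusp1 (2.90 and 2.70).

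A gene was said to fall or rise when log2((FPKM + 1)/(FPKM + 1)), the library labelled Epc-dKO over wild type, was -1 or lower, or 1 or higher. The added 1 makes changes of genes with low values look smaller. By this rule 4 of the 8 expressed genes fell, Fos, Egr1, Fosb and Junb, and 0 rose. Among all expressed genes 1.88% fell and 2.75% rose, 196 and 287 genes. This split depended on the pseudocount, with 652 lower and 433 higher at 0.1 and 364 and 346 at 0.5. Of the 8 expressed immediate early genes, 6 were at least 2-fold lower at 0.1 and 5 at 0.5, against 6.25% and 3.49% of all expressed genes. With both libraries rescaled to the sum of the TPM scale, which shrinks the weight of the pseudocount and lets 15151 genes past the minimum, 1054 were lower and 545 higher, and 7 of the 10 immediate early genes were lower, against 6.96% of all genes past the minimum. The median log2 ratio was -0.98 for the 8 genes and -0.05 for all expressed genes. In the 6103 expressed genes up to the mean FPKM of Egr1, 1.95% fell and the median was -0.11.

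**Figure D2:**
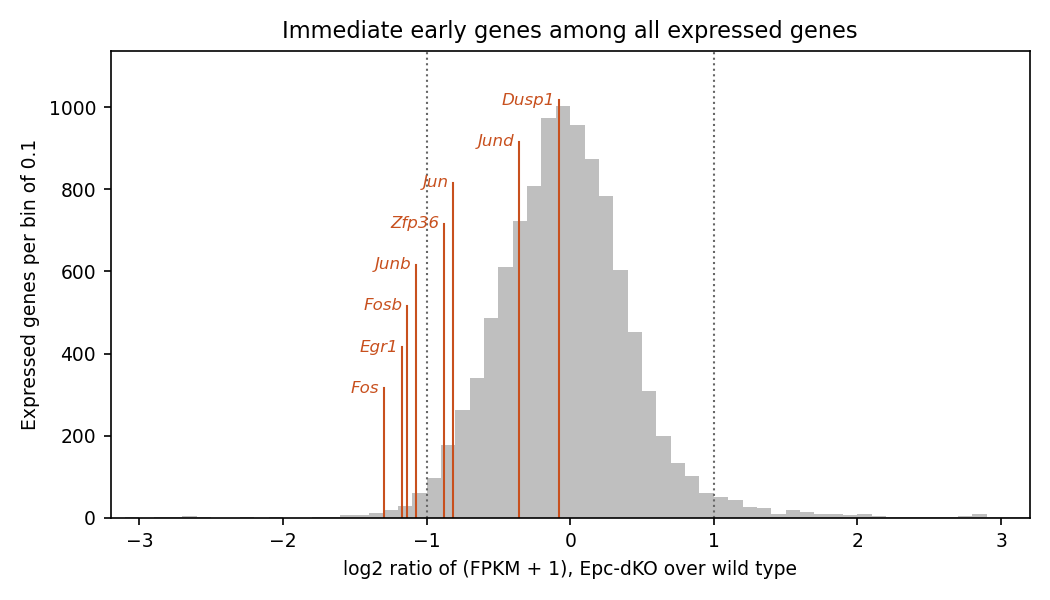
Histogram of the log2 ratio of (FPKM + 1), the library labelled Epc-dKO over wild type, for 10438 expressed genes, with the number of genes per bin on the vertical axis. Orange lines mark the 8 expressed immediate early genes and dotted lines the 2-fold rule. Fos, Egr1, Fosb and Junb lie left of the lower dotted line, and Dusp1, at -0.08, lies near the centre.

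The deposited values carry no read counts, but they move in steps that reveal the relative depth of the libraries. Of 3503 genes with both values above 0 and below 0.2 FPKM, 379 had values in a ratio of 0.905 to within a relative tolerance of 2e-05, as arises when both libraries hold the same whole number of fragments. A fragment was therefore worth 0.905 times as much in the library labelled Epc-dKO, which puts its scaling total at 1.10 times that of the wild type. The wild-type total itself comes to about 31200000 to 35700000 fragments from annotated lengths, an estimate since the authors' gene models were not used here. For each of the 10 genes the smallest whole numbers of fragments that give its ratio of values were found, and these are lower limits for the fragments counted if fragments were counted whole. Exact 95% Clopper-Pearson intervals of the FPKM ratio from these numbers, given below, cover counting error only. They compare the 2 libraries and not the genotypes.

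Fos and Fosb encode the Fos-type partners of AP-1, which bind DNA only when paired, as a rule with a Jun protein. Fos was measured at 4.67 FPKM in wild type and at 1.31 in the library labelled Epc-dKO. It fell by 1.30 on the log2 scale, and 0.843% of expressed genes had a log2 ratio as low or lower. The plain ratio was 0.280, with a counting interval of 0.221 to 0.351 from at least 327 and 101 fragments. Fosb stood at almost the same wild-type level, 4.96, and at 1.71 in the library labelled Epc-dKO. It fell by 1.14 on the log2 scale, with a plain ratio of 0.344 and a counting interval of 0.292 to 0.405. The counting intervals of Fos and Fosb overlap. Both Fos genes together had a summed FPKM of 9.63 and 3.02.

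The Jun genes, whose products pair with Fos proteins or with each other, differed among themselves. Junb was at 2.77 FPKM in wild type and at 0.791 in the library labelled Epc-dKO, and it fell by 1.07 on the log2 scale. Its plain ratio of 0.286 (counting interval 0.206 to 0.391, at least 168 and 53 fragments) was close to that of Fos. Jun had 2.87 and 1.20, a log2 ratio of -0.82, which did not pass the rule. Its plain ratio was 0.417, with a counting interval of 0.340 to 0.509. Jund, the Jun gene known for steady rather than induced expression, had 4.63 and 3.40 and a log2 ratio of -0.36. Its plain ratio was 0.734, and its counting interval of 0.574 to 0.936 lay above those of Jun and Junb. Jund made up 12.0% of the summed FPKM of the 10 genes in wild type and 19.6% in the library labelled Epc-dKO.

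Egr1, a zinc finger transcription factor gene, was the most abundant of the 10 in both libraries. Its FPKM was 10.4 in wild type against 4.06 in the library labelled Epc-dKO, and it fell by 1.17 on the log2 scale. The plain ratio was 0.392 with a counting interval of 0.347 to 0.441, the narrowest relative to its value of the 10, from at least 918 and 397 fragments. In the order of all 23234 genes by FPKM, Egr1 stood at rank 3414 in wild type against 5808 in the library labelled Epc-dKO.

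Atf3, a stress-induced factor of the ATF/CREB family, and Ier2, which encodes a nuclear protein of the IER family, were the lowest of the 10. Atf3 was at 0.594 FPKM in wild type and at 0.124 in the library labelled Epc-dKO. Its plain ratio of 0.209 was the lowest of the 10, but it rests on few fragments: the smallest numbers are 13 and 3, and the annotated length points to about 39.3 and 9.06. The counting interval from the smallest numbers was 0.0382 to 0.760. Ier2 had 0.757 and 0.352, a plain ratio of 0.465 with a counting interval of 0.253 to 0.829 from at least 37 and 19 fragments. Their log2 ratios with a pseudocount of 1 were -0.50 and -0.38. In the 3128 genes with a mean FPKM from that of Atf3 up to 1, 65.1% were lower by any amount in the second library and 21.5% had a plain ratio under 0.5.

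The feedback genes Dusp1 and Zfp36 differed from each other. Dusp1 encodes a nuclear phosphatase that switches off MAP kinases. Its FPKM was 2.90 in wild type against 2.70 in the library labelled Epc-dKO, for a log2 ratio of -0.08. The plain ratio of 0.930 had a counting interval of 0.756 to 1.14, the only one of the 10 to include 1, and the smallest fragment numbers were 187 and 192. In order of FPKM among the 10, Dusp1 was at position 6 in wild type and 3 in the other library. Zfp36 encodes tristetraprolin, a protein that binds AU-rich elements in mRNAs and recruits the deadenylation machinery. It had 4.04 and 1.74, a log2 ratio of -0.88 that did not pass the rule, and a plain ratio of 0.429 with a counting interval of 0.282 to 0.643, below that of Dusp1.

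Without a pseudocount, a setting chosen after seeing the data, 6 of the 8 expressed genes had a plain ratio under 0.5, against 7.25% of all expressed genes and 10.8% of those up to the level of Egr1. With Ier2 and Atf3 it was 8 of 10, and only Jund and Dusp1 lay above. The whole counting interval lay under 0.5 for Fos, Fosb, Junb and Egr1, the same 4 that fell on the log2 scale.

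**Figure D3:**
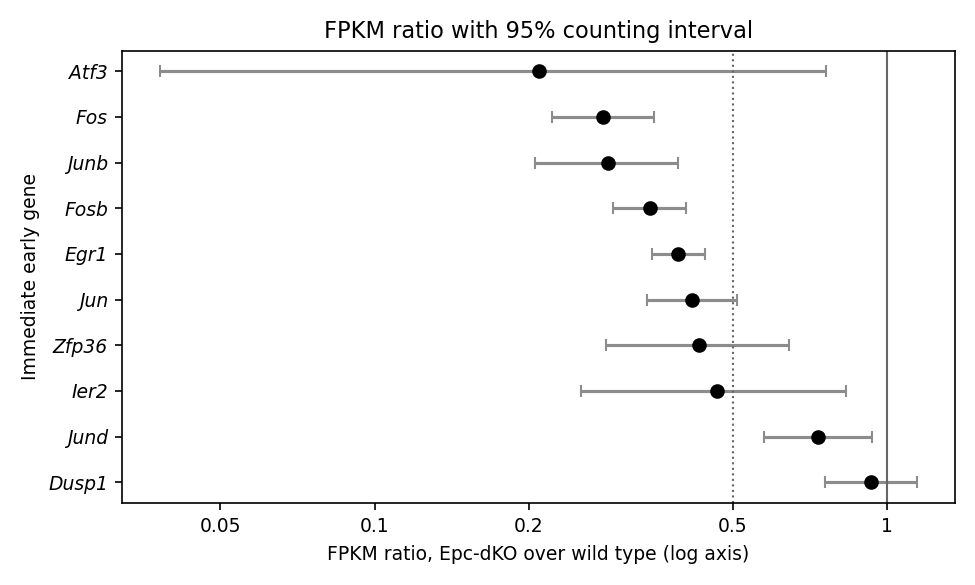
FPKM ratio of the library labelled Epc-dKO over wild type for each of the 10 genes on a log axis, with bars for the 95% counting interval from the smallest fragment numbers. The solid line marks a ratio of 1 and the dotted line 0.5. The bars of Fos, Junb, Fosb and Egr1 lie wholly left of 0.5, that of Atf3 is the widest, and that of Dusp1 crosses 1.

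The 10 genes share a compact structure that their choice by name did not use. In GENCODE M21 the longest coding transcript had 1 exon in Jun, Junb, Jund and Ier2, and 4 or fewer in all 10, against a median of 10 exons in 8665 expressed genes with a coding transcript, of which 18.8% had 4 or fewer. In that class of 1630 expressed genes with 4 exons or fewer, 1.66% fell and the median log2 ratio was -0.06. Exons of 5 of the genes overlap an exon on the opposite strand: Jun with Junos, Jund with Gm11175, Zfp36 with Gm44710, Junb with Prdx2 and Dusp1 with Ergic1. The library kit marks strand, but the strand setting of the counting was not given in the sources used here, so reads of such pairs may be mixed. Jund and Gm11175 share 877 exonic bases, while Junb and Prdx2 share 173, and Prdx2 itself had an FPKM of 1.72 in both libraries.

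Sites of the kind that tristetraprolin binds are shown next because the 10 genes include both its gene and known targets. The heptamer TATTTAT was searched on the transcript strand, with overlaps counted, in the 3′ UTR of the longest coding transcript. It was present in 7 of the 10 genes and in 27.2% of the expressed genes with a coding transcript. Dusp1 and Zfp36 held 3 matches each, Fos 2, and Fosb, Jun, Jund and Atf3 1 each, and it was not found in those of Junb, Egr1 and Ier2. With 3 matches, Dusp1 and Zfp36 had plain ratios of 0.930 and 0.429, and Fos, with 2, had 0.280. With 1 match, Fosb, Jun, Jund and Atf3 had 0.344, 0.417, 0.734 and 0.209. Without a match, Junb, Egr1 and Ier2 had 0.286, 0.392 and 0.465. A relation between matches and ratios was not tested. Over the 2355 expressed genes with the heptamer the median log2 ratio was -0.0018. Capitals mark the heptamer in these 30-base stretches of GENCODE M21 transcripts.
Fos: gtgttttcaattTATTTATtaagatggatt
Atf3: gaaaatattactTATTTATcccagtattcc
Dusp1: ggagctggtcctTATTTATttaacaccccc
Zfp36: TATTTATgacgacttTATTTATtgtattaa

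On the log2 scale, the other immediate early genes that were expressed were mostly nearer to parity. Of 44 listed, 19 were expressed, 2 fell, 0 rose, and 14 had a log2 ratio below 0, with a median of -0.21. Among all expressed genes 1.88% fell and 54.4% were lower by any amount. By plain ratio 4 of the 19 were under 0.5, against 6 of the 8 expressed genes above and 7.25% of all expressed genes. The listed genes below the minimum are outside these counts. Their plain ratios ran from 0.181 (Id1) to 2.90 (Npas4), and more of them lay under 0.5 than above it. In the 3128 genes with a mean FPKM from that of Atf3 up to 1, 21.5% had a plain ratio under 0.5. Some of the listed genes had means below that range. The falls were in Cyr61, which encodes a secreted matrix-associated protein, from 2.88 to 0.870 FPKM (log2 ratio -1.05), and in Ppp1r15a, which encodes the stress-induced eIF2alpha phosphatase subunit GADD34, from 2.02 to 0.459 (-1.05). The most abundant were at levels far above any of the 10 genes. Arc, known for its role at synapses, had 143 in wild type against 125 in the library labelled Epc-dKO, for a log2 ratio of -0.20. Klf4, a Kruppel-like factor gene known to be expressed in spermatids, had 54.3 and 39.5 (-0.45).

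Family relatives of the 10 genes gave 0 falls and 0 rises among 14 expressed of 29 listed, and their median log2 ratio was -0.12. Egr3, with an FPKM of 15.6 and 11.2, was more abundant than Egr1 in both libraries and had a log2 ratio of -0.44, while Egr4 had 1.34 and 1.46 and Egr2 was at 0.440 and 0.186. Among ATF genes Atf2 was the highest, with 38.4 and 33.3, followed by Atf1 with 11.6 and 13.0. The Fos relatives Fosl1 and Fosl2 were below an FPKM of 1 in both libraries, with 0.437 and 0.495 for Fosl1 and 0.787 and 0.285 for Fosl2. The relatives of Zfp36 went apart: Zfp36l1 had 8.52 and 9.28, and Zfp36l2 had 1.77 and 0.782 (log2 ratio -0.64). Zfp36l3, under a mean FPKM of 1, had 0.258 and 0.0406, a plain ratio of 0.157. Of the MAP kinase phosphatase genes, Dusp4 had 5.53 and 4.98, Dusp10 had 3.64 and 5.22, and Dusp16 had 3.58 and 5.22. Members of that family under a mean FPKM of 1 went both ways. Dusp9 had 1.56 and 0.421, a plain ratio of 0.270. The ratios of Dusp7, Dusp8, Dusp6 and Dusp14 were 0.276, 0.457, 0.494 and 0.586. Dusp5 was higher, with 0.823 and 1.05, as was Dusp2, with 0.0382 and 0.173. With a pseudocount of 0.1, 1 of the 14 expressed relatives and 4 of the 19 other immediate early genes were at least 2-fold lower. Of all expressed genes 6.25% were as low. On the TPM scale, which also lets more genes past the minimum, these counts were 4 and 8, against 6.96% of all genes past it. The number of listed genes past the minimum on that scale was not counted.

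The pathways upstream and downstream held no gene that passed the rule with its pseudocount of 1. In the MAP kinase cascade 0 of 21 expressed genes fell or rose, with a median of -0.29. By plain ratio 3 were under 0.5: Mapk14 at 0.480 and, named after their values were seen, Mapk11, which encodes a p38 kinase, with 1.92 and 0.740 (ratio 0.386), and the ERK activator gene Map2k1 at 0.496. Mapk3, which encodes the kinase ERK1, had an FPKM of 53.3 and 51.9. The largest log2 ratios of (FPKM + 1) in that list were those of Map2k7, an activator of JNK, with 25.4 and 46.2 (log2 ratio 0.83), and of Mapk14, which encodes another p38 kinase, with 4.62 and 2.22 (-0.80). Of 10 expressed regulators of the SRF, TCF and CREB type 0 passed the rule, with a median of 0.06 that was -0.0473 on the TPM scale and -0.0106 without a minimum FPKM. Mkl1, encoding an SRF coactivator, had 27.4 and 27.5, and Crebbp, encoding the CREB-binding acetyltransferase, had 23.8 and 29.4. Crem, the CREB relative known as a main activator of spermatid genes, had 14.6 and 24.5 (0.71), and Crtc1, a CREB coactivator gene, had 3.45 and 1.67 (-0.74), the only one of the 10 with a plain ratio under 0.5 (0.483). None of 25 expressed factors of AU-rich mRNA decay and stabilisation passed the rule either (median -0.08). Cnot1, the scaffold gene of the CCR4-NOT deadenylase, had 141 and 155, and Exosc5, an exosome subunit gene, had 60.6 and 44.7.

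Markers of cell types differed between the libraries as well. All 16 round spermatid markers were expressed in both, with summed FPKM of 983 in wild type against 974 in the library labelled Epc-dKO, a median log2 ratio of 0.02 and 0 past the rule. Late spermatid markers summed to 747 and 1996, and 7 of 12 rose. Spermatogonial markers, which include Dmrt1 with an FPKM of 7.49 and 2.47 and Dazl with 7.42 and 3.44, summed to 48.3 and 22.9, a ratio of 0.473 beside 0.450 for the immediate early genes. Of their 12 expressed members 12 had a log2 ratio below 0 and 2 fell. By plain ratio 8 of the 12 were under 0.5, beside 6 of the 8 expressed immediate early genes. Spermatocyte markers summed to 226 and 215, of which Syce1 alone had 115 in both libraries. Of 13 expressed, 2 fell and 4 had a plain ratio under 0.5. Among somatic markers the sums were 14.8 and 8.96 for Sertoli cells (2 of 15 found were expressed) and 43.7 and 29.4 for Leydig cells (9 of 10). They were 31.4 and 44.1 for peritubular and stromal cells (5 of 10), and 7.17 and 6.15 for endothelial, blood and immune cells (1 of 14 found). The peritubular sum was higher through Actg2 alone, a smooth muscle actin gene with 15.3 and 36.2; the other 9 markers of that list were all lower and summed to 16.1 and 7.92. The Leydig sum was lower through Insl3 (14.9 and 6.79) and Ptgds (9.29 and 3.09), and the other 8 summed to 19.5 in both libraries. Both reduced sums were chosen after the values were seen. Sertoli markers went both ways: Clu (8.29 and 5.03), Vim (1.92 and 0.659) and most others were lower. Rhox8 was higher, with 0.279 and 0.473. In the endothelial, blood and immune list Csf1r (0.301 and 0.739) and Emr1 (0.444 and 0.908) were higher, and most others were lower. Rhox8, Csf1r and Emr1 were named after their values were seen, and each had a mean FPKM under 1. The haemoglobin genes Hbb-b1 and Hba-a1 were listed at 0 in both libraries, and the Sertoli gene Fshr was listed at 0 in the wild-type library. The part of these cells in the lower immediate early genes was not tested, and in bulk libraries fewer cells of a type and less RNA per cell cannot be told apart. How cells were isolated was not given in the sources used here. Epc1 and Epc2 had FPKM values of 11.4 and 7.12 in wild type against 13.6 and 10.5 in the library labelled Epc-dKO, so the label is not borne out by lower levels of its target genes. A gene-level FPKM includes exons outside a deleted part.

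**Figure D4:**
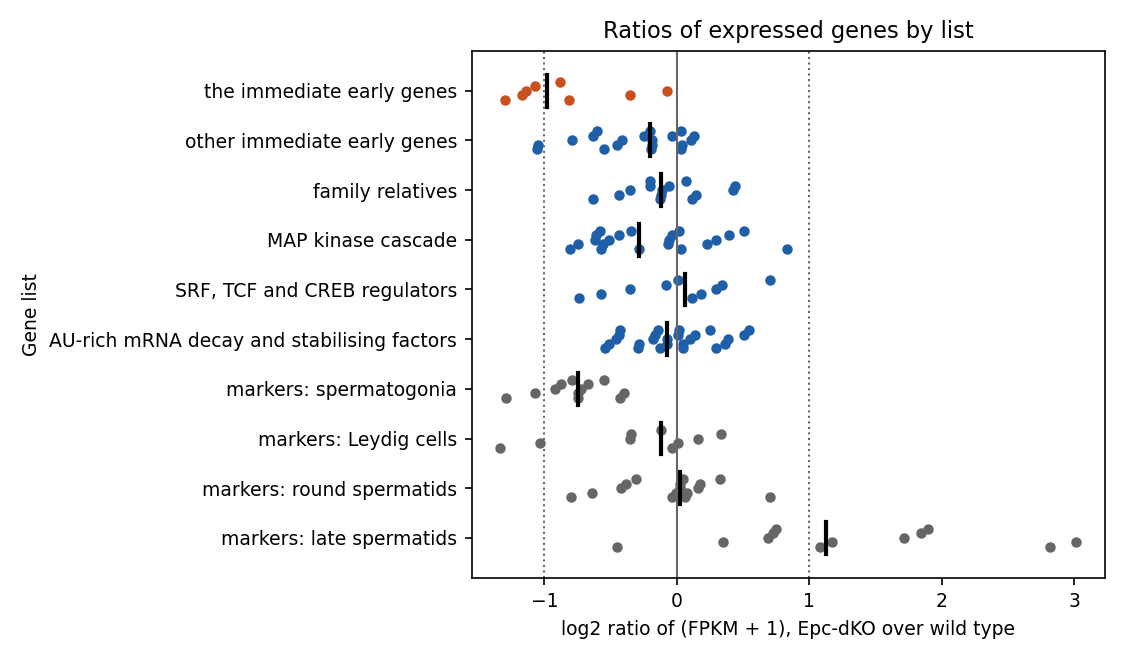
Log2 ratio of (FPKM + 1), the library labelled Epc-dKO over wild type, for each expressed gene of 10 lists, with a black bar at the median of each list, a solid line at 0 and dotted lines at the 2-fold rule. The immediate early genes have a median of -0.98, other immediate early genes -0.21, spermatogonial markers -0.75 and late spermatid markers 1.13.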

How the data were processed

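RNA-seq was performed on total RNA of round spermatids with a directional kit, per the labels' protocols, in 1 wild-type library and 1 labelled Epc-dKO. The authors deposited FPKM per gene for both in 1 table. Cufflinks 2.2.1 and the mm9 build are named per the submitters' processing notes; aligner, annotation and strand setting were not given in the sources used here. A single row without a gene was left out. From the FPKM, log2 ratios with a pseudocount of 1, plain ratios and their counting intervals were computed; expressed means a mean FPKM of 1 or more. Genes named are the 10 members, the 2 most abundant and 2 most changed of each list, and family relatives. A few others were named after their values were seen. Members, lists and rules were chosen with earlier results of these data known. Sequences are from RefSeq (GRCm38.p6) and GENCODE M21, which annotates GRCm38; 8 of the 10 genes had a promoter entry that is used. Alternatives were other pseudocounts, minima, scalings and a 4-fold rule. The procedure was tested on simulated data. The genes lowered there, by 4-fold, had a mean FPKM of 5 or more, which only Egr1 of the 10 genes reached. Computations ran in Python 3.11.15 with pandas 2.3.3, NumPy 2.4.6 and SciPy 1.17.1, and figures in Matplotlib 3.10.9.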

Additional observations from a re-analysis of the deposited data

How the results depend on the processing

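Under 3 scalings the log2 ratios of the 10 genes were below 0 in 30 of 30 recalculations. The scalings moved the median of all expressed genes by at most 0.0451. Only Dusp1, with a log2 ratio of -0.08, lay near 0, and shifts of this size could not change the sign of the other genes. A pseudocount or a 4-fold rule cannot change a sign. The number of expressed immediate early genes at least 2-fold lower was 6 with a pseudocount of 0.1 and 5 with 0.5. It was 7 on the TPM scale, where all 10 pass the minimum and Jun, Zfp36 and Atf3 also pass the rule. Of all genes above the minimum there, 6.96% were as low. The number was 1 with a mean FPKM of 5 or more, where only Egr1 is left, and 0 under the 4-fold rule. Counts of all expressed genes that were lower and higher were 652 and 433 with a pseudocount of 0.1, 757 and 469 without one (chosen after seeing the data), 1054 and 545 on the TPM scale, 105 and 166 at a minimum mean FPKM of 5, and 59 and 76 under the 4-fold rule; with a pseudocount of 0.5, 364 were lower. The median of the SRF, TCF and CREB regulators became -0.0106 without a minimum and -0.0473 on the TPM scale; the cause was not tested. No paired analysis was possible because the 2 libraries are the only ones of their groups. Low depth limits Atf3 and Ier2 most.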
